A study of Mus musculus with 9 samples.

Results

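The genes described here are 46 gastric, intestinal and foregut endoderm genes of the mouse, examined for Sox2 binding in lung epithelial cells. These genes and their 3 classes were chosen by name, out of 21887 protein-coding genes, with earlier results of these data known. Gut differentiation genes (17) mostly encode products of the mature stomach and intestine, though Ttr is made in liver and Cldn18 has a lung form. Gut endoderm transcription factors (9) specify stomach, pancreas, liver and intestine, with Barx1 a gene of stomach mesenchyme. Shared foregut and epithelial regulators (20) act in lung as well as gut or other epithelia. For each gene, every Sox2 summit, the point of highest signal in a binding region, was taken inside its RefSeq span or within 50 kb of it. The assay was ChIP-seq, which sequences the DNA pulled down with a protein, here with a goat antibody against Sox2 in C57BL/6 mouse lung epithelial cells, with an age of 8 weeks in the labels. The 3 Sox2 ChIP libraries came from wildtype cells, from cells with ectopic expression of Sox2, and from cells with ectopic expression of Sox2 together with deletion of Nkx2-1. The labels name no transgene promoter, no Cre driver, no number of animals and no pooling. Each condition had 1 library, so differences between the conditions have no replicate to check them and carry no p-value, and intervals are exact 95% intervals for counting error only. Peak lists hold no expression values, so the cell type, the ectopic Sox2 and the Nkx2-1 deletion were taken from the labels.

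Sox2 and Nkx2-1 divide the early foregut tube: Sox2 marks the part that forms oesophagus and stomach, and later the conducting airways, and Nkx2-1 marks the part that forms trachea and lung. In lung epithelium and lung adenocarcinoma, Nkx2-1 holds a gastric programme in check, and its loss is known for the appearance of gastric markers such as gastrokines and trefoil factors, with Foxa1, Foxa2 and Hnf4a as the factors that drive them. Foxa1, Foxa2, Sox9, Id2, Irx and Nfi genes act in lung as well as in other endoderm. The classes are not exclusive: Gata6 and Foxa3, counted here with the gut endoderm transcription factors, belong to the wider foregut machinery, and Gata6 also acts in lung. The question put to these lists was whether Sox2 summits lay at the gut genes themselves or at the shared regulators.

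The promoters below are printed because they show the sequence at the starts of 3 regulators with a summit nearby and of 2 gut genes without one. They come from RefSeq (GRCm38.p6, the same build as mm10), run 5′ to 3′ on the gene's strand, and are numbered on mm10. Capitals mark the Sox-type motif ACAAAG, the Sox2-type motif ACAATG and the forkhead motif TGTTTAC, each searched on both strands, where motifs may overlap.
Foxa1, chr12:57546062-57546361, minus strand: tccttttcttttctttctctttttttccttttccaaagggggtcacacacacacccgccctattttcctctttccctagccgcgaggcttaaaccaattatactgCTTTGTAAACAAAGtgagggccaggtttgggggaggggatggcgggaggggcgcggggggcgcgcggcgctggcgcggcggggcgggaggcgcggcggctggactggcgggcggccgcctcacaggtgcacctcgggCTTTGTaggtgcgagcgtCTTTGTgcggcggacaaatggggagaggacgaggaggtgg
Irx2, chr13:72628570-72628869, plus strand: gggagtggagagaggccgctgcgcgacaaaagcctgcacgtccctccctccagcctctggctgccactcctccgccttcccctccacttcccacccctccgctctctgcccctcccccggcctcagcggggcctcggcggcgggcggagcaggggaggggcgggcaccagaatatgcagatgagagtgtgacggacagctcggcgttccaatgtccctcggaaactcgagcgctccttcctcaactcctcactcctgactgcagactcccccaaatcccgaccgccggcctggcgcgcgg
Foxp1, chr6:99266466-99266765, minus strand: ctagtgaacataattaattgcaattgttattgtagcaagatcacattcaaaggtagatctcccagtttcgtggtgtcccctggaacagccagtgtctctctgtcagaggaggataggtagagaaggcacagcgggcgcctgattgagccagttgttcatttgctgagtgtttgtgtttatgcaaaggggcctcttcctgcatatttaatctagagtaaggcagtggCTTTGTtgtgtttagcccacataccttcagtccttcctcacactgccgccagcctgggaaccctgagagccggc
Cdx2, chr5:147307200-147307499, minus strand: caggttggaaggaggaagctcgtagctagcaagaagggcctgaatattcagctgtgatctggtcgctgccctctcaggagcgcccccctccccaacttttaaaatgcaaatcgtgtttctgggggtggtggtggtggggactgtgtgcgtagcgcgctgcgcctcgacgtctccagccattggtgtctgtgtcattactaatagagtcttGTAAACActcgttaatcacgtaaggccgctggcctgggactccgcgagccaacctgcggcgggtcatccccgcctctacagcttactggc
Gkn1, chr6:87350866-87351165, minus strand: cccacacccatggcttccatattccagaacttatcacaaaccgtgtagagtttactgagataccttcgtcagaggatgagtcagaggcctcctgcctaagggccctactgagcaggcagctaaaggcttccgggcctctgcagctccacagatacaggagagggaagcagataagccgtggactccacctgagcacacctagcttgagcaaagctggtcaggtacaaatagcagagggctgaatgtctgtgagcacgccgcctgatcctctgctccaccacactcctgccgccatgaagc

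The Foxa1 window held ACAAAG 4 times and TGTTTAC 1 time, with a pair of ACAAAG matches and the forkhead match in 1 run. Of all 32817 RefSeq promoter windows of 300 bases, 0.0335% held ACAAAG at least 4 times. Foxa1 was singled out after its sequence was seen. At least 1 match was present in 18.7% of all windows for ACAAAG, 12.6% for ACAATG and 3.65% for TGTTTAC. Among the 35 windows listed for 28 of the 46 genes, 8 held ACAAAG, 4 held ACAATG and 2 held TGTTTAC, the latter in Foxa1 and Cdx2. The Irx2 and Gkn1 windows held none of these letters. No listed Sox2 region of any library overlapped 1 of these 35 windows. Over all windows, a listed region overlapped 0.0792% in wildtype, 0.116% in the ectopic Sox2 list and 0.195% in the list with the deletion as well. The summits described next therefore lay outside the promoters listed for these 28 genes. Among genes with a summit within 50 kb, Ehf, Grhl2, Nfib, Tff1, Tff2 and Tff3 had no listed window. Overlap with their promoters could not be checked. The sequences at the summits were not analysed here.

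The 3 lists differed in length and depth. The wildtype list had 552 summits, the ectopic Sox2 list 229 and the Nkx2-1 deleted list, which also has ectopic Sox2, 2589. Depth, recovered from the fold and p that the authors' peak caller gives each summit, was a mean coverage of 0.963, 0.764 and 1.45 ChIP fragments per position. The lowest listed −log10 p was 5.27, 5.47 and 4.70 in the same order. A summit within 50 kb was found for 2.85% of all protein-coding genes in wildtype, for 1.53% in the ectopic Sox2 list and for 13.1% in the Nkx2-1 deleted list.

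Of the 46 genes, 9 had a summit within 50 kb in some list (19.6%, against 14.7% of all protein-coding genes), and 37 had none. These 9 were 6 shared regulators, Foxa1, Irx2, Ehf, Grhl2, Foxp1 and Nfib, and 3 gut differentiation genes, Tff1, Tff2 and Tff3. None of the 46 had a summit in more than 1 list. Over all genes 2.36% did, and a count of 0 among 46 is near that share. No gut endoderm transcription factor had a summit within 50 kb in any list. The plot of nearest summits shows these genes to the left of the 50 kb line, each with a single library.

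**Figure D1:**
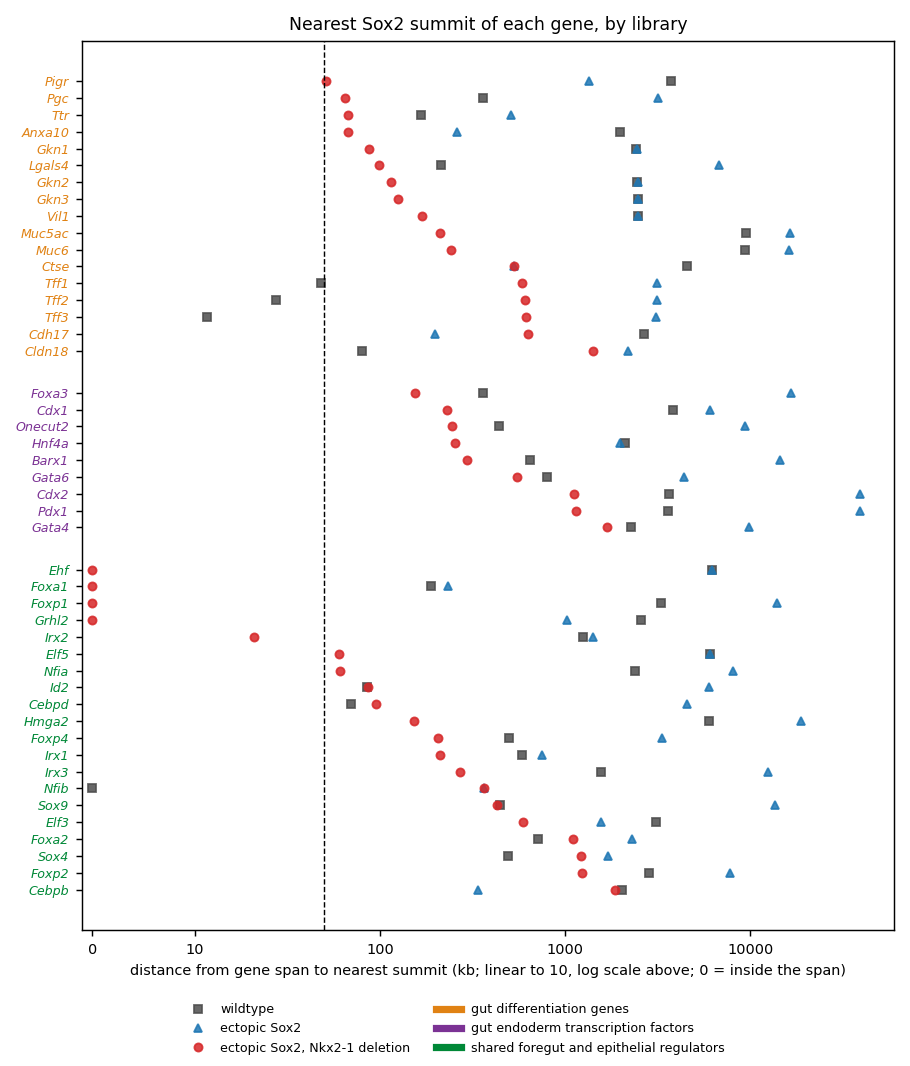
Distance in kb (linear to 10, logarithmic above) from each gene's span to the nearest Sox2 summit in the wildtype, ectopic Sox2 and Nkx2-1 deleted lists, with 1 point per library and the 50 kb limit dashed. Only 5 regulators in the Nkx2-1 deleted list, and Nfib and the 3 Tff genes in wildtype, lie left of the line; no ectopic Sox2 point does, and its closest is Cdh17 at 198 kb.

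In the Nkx2-1 deleted list, 5 of the 20 shared regulators (25%) had a summit within 50 kb, against 0 of 17 gut differentiation genes and 0 of 9 gut endoderm transcription factors, and against the 13.1% of all genes given above. Over the whole group this was 5 of 46 genes (10.9%), below the share of all genes, and with a −log10 q of at least 5 or at the ectopic Sox2 depth it was 3 of 46 (6.52%), against 8.83% and 11.9% of all genes. The 5 genes rested on 7 summits in 6 regions. None of these regions overlapped a region of another list. Over all summits in this list 12.7% did so, and 0 of 7 is near that share. The 7 summits had a median −log10 q of 5.45, near the list's median of 5.97, and a median fold of 4.14, below the list's 5.73.

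Foxa1 encodes a forkhead pioneer factor that opens chromatin in foregut endoderm and its derivatives. Its gene spans positions 57540628 to 57548029 of chromosome 12 (mm10), and the Nkx2-1 deleted list placed a summit inside it, in the region from 57544904 to 57545162. The summit lay 1.08 kb downstream of the RefSeq start whose promoter is printed above. It had a fold of 7.30, a −log10 q of 8.19 and 39 ChIP fragments (interval 27.7 to 53.3), which ranked 718 of 2589 by q. The nearest summit to Foxa1 was 188 kb away in wildtype and 234 kb away with ectopic Sox2. The same enrichment at the depth of the ectopic Sox2 library would give 20.5 fragments and a −log10 p of 10.8, above that list's lowest value of 5.47. Ttc6 also lies within 50 kb of this summit.

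Irx2, an Iroquois homeobox gene expressed in lung epithelium, had the strongest of these 7 summits by q. The region on chromosome 13, from 72603476 to 72603723, lay 20.8 kb from the span (72624430 to 72634196) and 25.2 kb upstream of the RefSeq start. It had a fold of 8.76, a −log10 q of 10.3 and 39 fragments (27.7 to 53.3). No other protein-coding gene lay within 50 kb. The nearest summit to Irx2 was 1250 kb away in wildtype and 1410 kb away with ectopic Sox2, where equal enrichment would give a −log10 p of 12.7.

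Ehf, an ETS factor of epithelia, had a pair of summits. One lay inside the gene on chromosome 2, in the region from 103277748 to 103278016, with a fold of 6.67, a −log10 q of 6.04 and 26 fragments (17.0 to 38.1). The other lay 24.4 kb outside the span (103263431 to 103303275), at 103238922 to 103239223, with 62 fragments (47.5 to 79.5) but a fold of 3.89, with a control background of 6.00 there against 0.800 at the first. At the ectopic Sox2 depth the 2 sites would reach a −log10 p of 7.59 and 7.44. In both other lists the nearest summit to Ehf was 6220 kb away. Elf5, the neighbouring ETS gene on the same chromosome, had its nearest summit 59.8 kb away, just outside the limit and closer to Cat.

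Grhl2, a grainyhead factor that maintains epithelial junctions, and Foxp1, a forkhead repressor of lung epithelium, had weaker summits. The Grhl2 region, at 37317945 to 37318355 of chromosome 15, held 2 summits inside the gene with folds of 3.50 and 3.64 and −log10 q of 2.37 and 1.99, on 39 and 32 fragments. Ncald also lies within 50 kb of these summits. The Foxp1 summit lay inside that 597 kb gene on chromosome 6, in the region from 99343969 to 99344195, 77.5 kb upstream of the RefSeq start printed above and between that start and an earlier one, with a fold of 4.14, a −log10 q of 2.34 and 27 fragments (17.8 to 39.3). Scaled to the ectopic Sox2 depth, the Foxp1 site would have a −log10 p of 5.18 and the Grhl2 sites 5.20 and 4.40, all under the lowest value of 5.47 in that list. The values of 5.18 and 5.20 were close to that limit, and the cause of these sites' absence from the ectopic Sox2 list was not tested. Leaving out summits that would not pass at that depth, 3 of the 20 regulators remained (Foxa1, Irx2 and Ehf), against 11.9% of all genes. The count was also 3 with a −log10 q of at least 5, against 8.83% of all genes. The scaling to the ectopic Sox2 depth takes enrichment as equal in the 2 libraries. Over 119 pairs of overlapping summits, the depth-scaled ratio of fragments, Nkx2-1 deleted over ectopic Sox2, had a median of 1.27. The scaled values and the count at that depth leave this difference out.

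**Figure D2:**
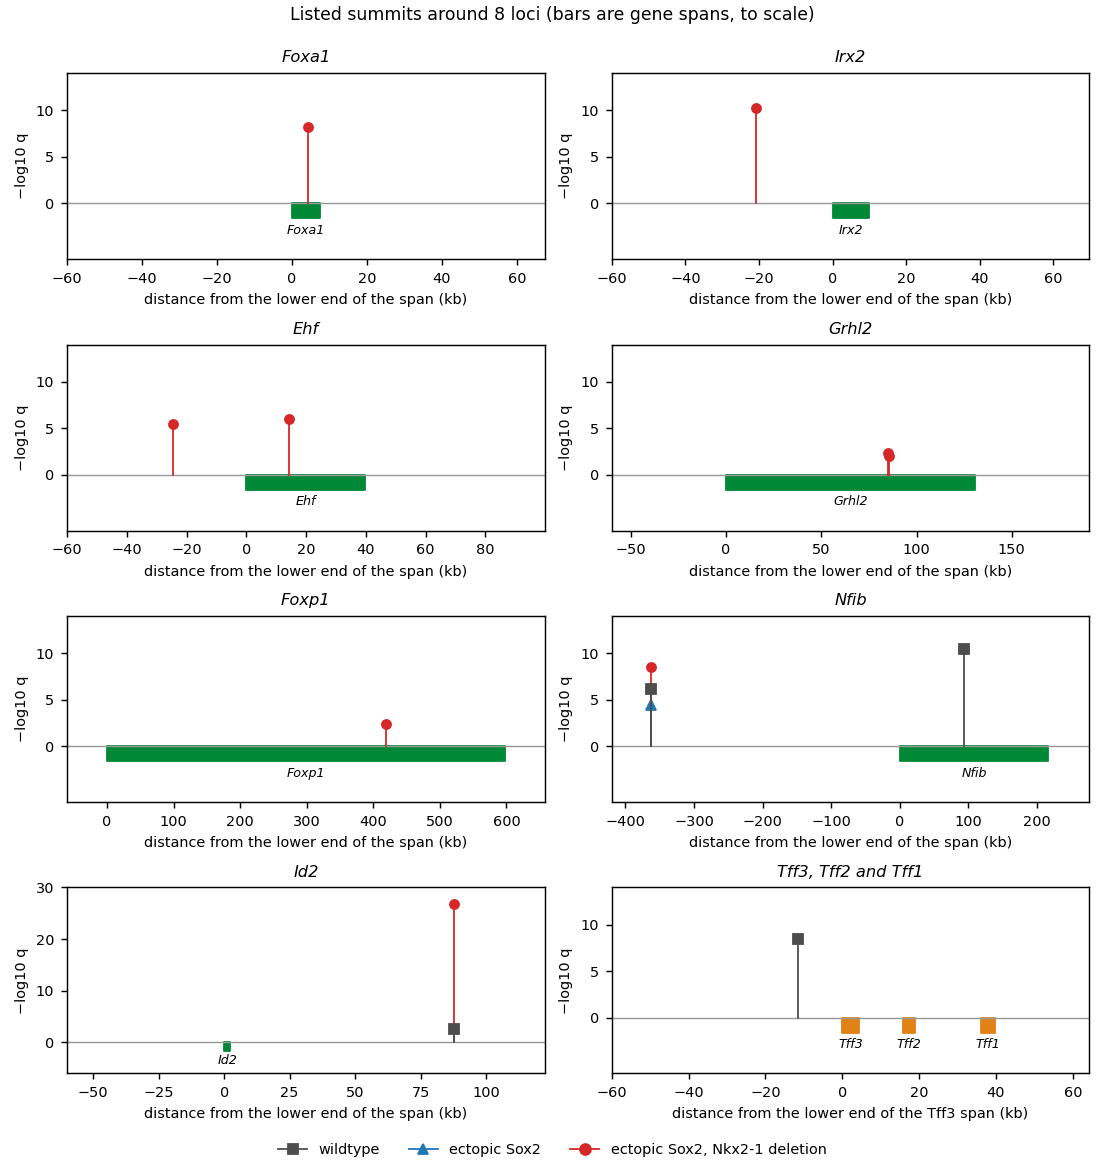
The authors' −log10 q of each listed summit (vertical axis) against distance in kb from the lower end of the gene span (horizontal axis) around 8 loci, with spans drawn as bars to scale and colours for the libraries. The Nkx2-1 deleted list alone has the Foxa1, Irx2, Ehf, Grhl2 and Foxp1 summits, wildtype alone those within Nfib and beside Tff3, and the Id2 and outer Nfib sites recur in more than 1 list.

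In wildtype, 4 of the 46 genes had a summit within 50 kb, on 2 separate summits. Neither summit's region overlapped a region of another list. Over all wildtype summits 56.3% did so, and 0 of 2 is too few to set against that share. Nfib, a nuclear factor I gene needed for lung maturation, had a summit inside the gene on chromosome 4 (82290173 to 82506751), in the region from 82383481 to 82383750. Its fold of 9.66 ranked 19 of 552 in the list, with a −log10 q of 10.5 and 21 fragments (13.0 to 32.1). Neither other list held this region. At the depth of the Nkx2-1 deleted library the same enrichment would give 31.7 fragments and a −log10 p of 14.1, above that list's lowest value of 4.70, and at the depth of the ectopic Sox2 library it would give 11.2. No Nkx2-1 deleted summit lay nearer than 363 kb to Nfib.

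The second wildtype summit served all 3 trefoil factor genes, which encode small secreted peptides that protect the gastric and intestinal mucosa. It lay on chromosome 17 in the region from 31113511 to 31113836, 11.6 kb from Tff3, 27.4 kb from Tff2 and 47.7 kb from Tff1, with a fold of 7.86, a −log10 q of 8.49 and 22 fragments (13.8 to 33.3). The summit itself lay inside Abcg1, a cholesterol transporter gene. The wildtype count of 3 of 17 gut differentiation genes (17.6%, against 2.85% of all genes) is therefore 1 summit counted for 3 neighbours, and it was 0 within 10 kb or by nearest gene. With Nkx2-1 deletion the nearest summit to Tff3 was 617 kb away. Equal enrichment would give a −log10 p of 12.3 in that library and 10.0 with ectopic Sox2.

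With ectopic Sox2 alone, 0 of the 46 genes had a summit within 50 kb or within 100 kb. The 1.53% of all genes found in this list corresponds to less than 1 gene among 46, so the count of 0 is near the background. The nearest summits of this list lay 198 kb from Cdh17, an intestinal cadherin, 234 kb from Foxa1 and 259 kb from Anxa10.

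**Figure D3:**
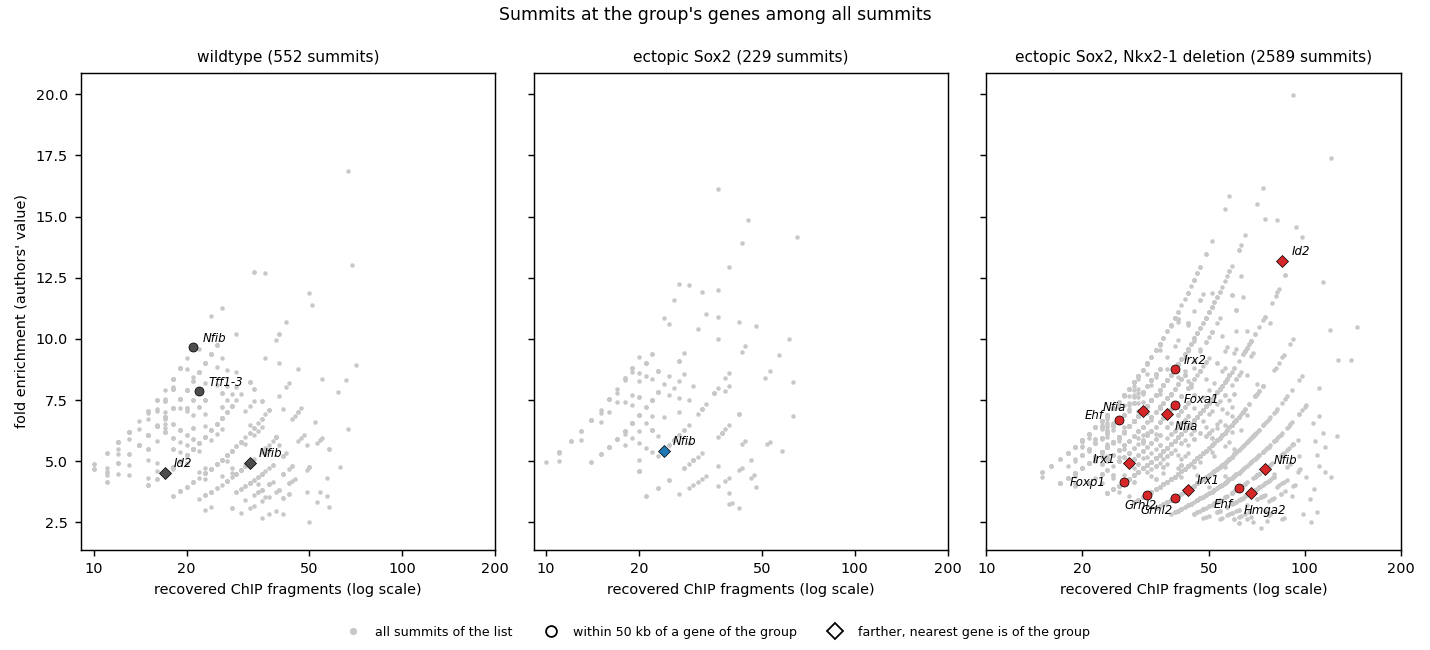
The authors' fold enrichment (vertical axis) against recovered ChIP fragments (horizontal, log scale) for every summit of the 3 lists in grey, with those within 50 kb of a gene of the group as circles and farther ones nearest to such a gene as diamonds. The Id2 site stands at a fold of 13.2 in the Nkx2-1 deleted list and 4.53 in wildtype, and only the outer Nfib site is marked with ectopic Sox2.

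Several regulators were the nearest protein-coding gene to summits farther than 50 kb away. Id2, which encodes an inhibitor of helix-loop-helix factors active at the tips of the growing lung, was nearest to the strongest of these. The region on chromosome 12, at 25181451 to 25181793, lay 85.5 kb from Id2 on its upstream side, and no protein-coding gene lay within 50 kb. It ranked 14 of 2589 by q in the Nkx2-1 deleted list, with a fold of 13.2, a −log10 q of 26.8 and 85 fragments (67.9 to 105). In wildtype the same site had 17 fragments (9.90 to 27.2), a fold of 4.53 and a −log10 q of 2.53. Scaled by depth, the ratio of fragments in the Nkx2-1 deleted over the wildtype library was 3.32 (interval 1.96 to 5.96), while the median over the 275 pairs of summits whose regions overlap between these lists was 1.35 (quartiles 1.09 to 1.69). The site was picked with its rank known, which favours a high ratio, and the comparison is between 2 libraries. The ectopic Sox2 list had no summit within 5970 kb of Id2. The Nkx2-1 deleted enrichment, scaled to that library's depth, would give 44.7 fragments and a −log10 p of 27.1, but the wildtype enrichment would give a −log10 p of 4.87, under the list's lowest value.

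The outer Nfib site was the only one of these genes' sites found in all 3 lists. It lay 363 kb from Nfib on chromosome 4, at 81926814 to 81927205 in the Nkx2-1 deleted list. It had 32 fragments (21.9 to 45.2) in wildtype, 24 (15.4 to 35.7) in the ectopic Sox2 list and 75 (59.0 to 94.0) in the Nkx2-1 deleted list. The authors' folds were 4.94, 5.44 and 4.68. The control background at the site was 4, 2 and 6 in the same order, and the ratios that follow do not subtract it. Scaled by depth, ectopic Sox2 over wildtype gave 0.946 (0.533 to 1.66), an interval that includes 1. Nkx2-1 deleted over wildtype gave 1.56 (1.02 to 2.43) and over ectopic Sox2 1.64 (1.03 to 2.72), near the medians of 1.35 and 1.27 over all overlapping regions of those lists.

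Nfia, the paralogue of Nfib, was nearest to 2 Nkx2-1 deleted summits, 60.6 kb and 319 kb from the gene, with folds of 6.94 and 7.06 and 37 and 31 fragments. Irx1, which neighbours Irx2, was nearest to 2 weak summits at 211 kb and 235 kb, with −log10 q of 3.18 and 3.53. Hmga2, which encodes an architectural chromatin protein of embryonic tissue, was nearest to 1 summit at 152 kb with 68 fragments (52.8 to 86.2) and a fold of 3.72. None of these sites overlapped a region of another list.

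By the nearest-gene rule, 10 of the 20 regulators (50%) had a summit with Nkx2-1 deletion, against 8.51% of all genes and 0 of the 26 gut genes. The room around the genes also differed between the classes, and its part in this count was not tested. The gaps to the flanking protein-coding genes summed to a median of 684 kb for the regulators, 35.4 kb for gut differentiation genes, 104 kb for gut endoderm transcription factors and 43.1 kb for all protein-coding genes. Over the stretches in which a regulator is the nearest gene, 14 summits in 9.57 Mb gave 1.46 per Mb (interval 0.800 to 2.46), which includes the 0.961 per Mb of the whole list. Gut differentiation genes had 0 summits in 1.21 Mb, which allows up to 3.04 per Mb, and gut endoderm factors 0 in 0.960 Mb, which allows up to 3.84.

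Per length of window the classes could not be told apart at this number of summits either. Spans with 50 kb on each side gave 1.62 summits per Mb (0.650 to 3.33) for the regulators and 1.18 (1.13 to 1.24) for all protein-coding genes. The gut differentiation genes had 0 in 1.70 Mb (up to 2.17 per Mb) and the gut endoderm factors 0 in 1.10 Mb (up to 3.36). Long genes more often had a summit: 7.70% of genes under 10 kb, 12.4% of those from 10 to 50 kb, 20.3% of those from 50 to 200 kb and 34.2% of longer ones. Median spans were 8.58 kb for the regulators, 10.1 kb for gut differentiation genes, 17.3 kb for gut endoderm factors and 17.2 kb for all genes. The longest spans were 597 kb among the regulators, 66.2 kb among gut differentiation genes and 72.8 kb among gut endoderm factors. Of the regulators with a summit, Foxp1 spans 597 kb and Grhl2 131 kb.

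**Figure D4:**
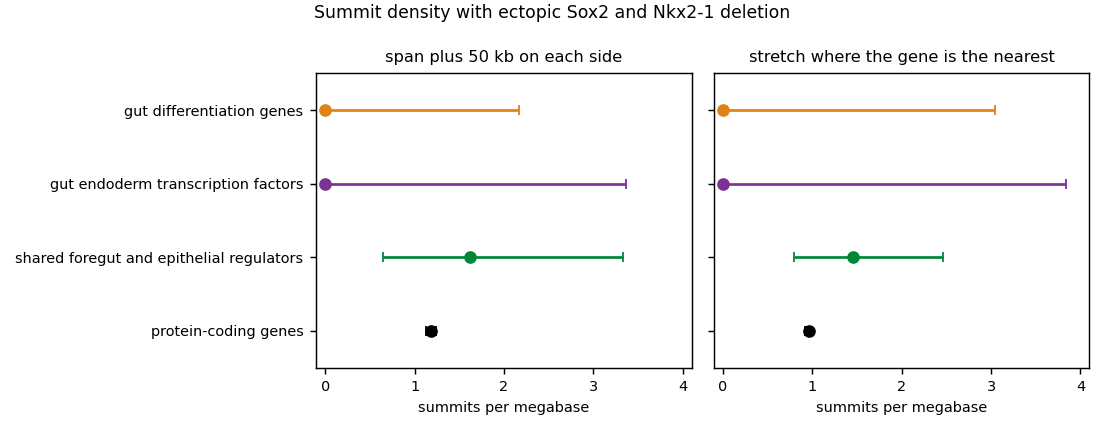
Summits per megabase in the Nkx2-1 deleted list (points) with exact Poisson 95% intervals (bars), over gene windows (left) and over stretches nearest to a gene (right), for the 3 classes and all protein-coding genes. The intervals of all 3 classes overlap the values of 1.18 and 0.961 for all genes.

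Among gut differentiation genes, the Nkx2-1 deleted summits began just beyond the limit. Pigr, the receptor that carries immunoglobulin A across epithelium, was 50.7 kb from the nearest, Pgc, the gastric pepsinogen C, 64.2 kb, Ttr, a carrier of thyroid hormone made in liver, 66.7 kb, and Anxa10, a gastric annexin, 66.9 kb. Gkn1, the first of the 3 gastrokine genes, which encode gastric surface proteins, was 86.6 kb away and the intestinal lectin gene Lgals4 98.1 kb. These 6 of 17 genes (35.3%) had a summit within 100 kb, against 20.7% of all genes and 9 of 20 regulators (45%). Each of these summits was nearer to another gene: Fcamr or Il19 for Pigr, Usp49 and Gm20517 for Pgc, B4galt6 for Ttr, Ddx60 for Anxa10, Antxr1 for Gkn1 and Actn4 for Lgals4. The strongest was the one inside Antxr1, with a −log10 q of 11.2 and 70 fragments (54.6 to 88.4).

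The other gut differentiation genes were farther from any Nkx2-1 deleted summit. Gkn2 lay 114 kb and Gkn3 124 kb away, the brush border gene Vil1 169 kb, and the gastric mucin genes Muc5ac and Muc6 211 kb and 240 kb. Ctse, which encodes cathepsin E of the gastric surface, was 526 kb away, Cdh17 631 kb and Cldn18, a tight junction gene with a lung and a stomach form, 1420 kb. Cldn18 was the only 1 of these with a wildtype summit within 100 kb, at 80.2 kb, nearer to Sox14. The class median was 169 kb, against 400 kb for all protein-coding genes, 178 kb for the regulators and 296 kb for the gut endoderm factors.

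None of the 9 gut endoderm transcription factors had a summit within 100 kb in any list, and none was the nearest gene to one. With Nkx2-1 deletion the distances were 154 kb for Foxa3, a forkhead factor of liver and gut, 231 kb for Cdx1 and 246 kb for Onecut2. Hnf4a, the nuclear receptor that drives gastrointestinal and hepatic genes, was 253 kb from a summit, and Barx1, a stomach mesenchyme homeobox gene, 296 kb. Gata6 was 548 kb away, Cdx2, the master regulator of intestine, 1120 kb, its neighbour Pdx1, needed for pancreas, 1150 kb, and Gata4 1690 kb. In wildtype the closest was Foxa3 at 358 kb, and with ectopic Sox2 Hnf4a at 1990 kb.

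Of the regulators not yet described, Cebpd had summits of 2 lists within 100 kb, a wildtype one at 69.2 kb (fold 7.95, 33 fragments) and a separate Nkx2-1 deleted one at 95 kb (fold 6.68, 45 fragments), both inside Spidr. Foxa2, the partner of Foxa1, was 712 kb from a summit in wildtype and 1100 kb with Nkx2-1 deletion. Foxp2, which at 541 kb is nearly as long as Foxp1, had no summit within 1230 kb in the Nkx2-1 deleted list, and Foxp4 none within 205 kb. Sox9, which marks the growing tips of the lung, was 427 kb from the nearest, Elf3 594 kb, Irx3 269 kb, Sox4 1220 kb and Cebpb 1850 kb. Sox4 was closer to a summit in wildtype, at 491 kb, and Cebpb with ectopic Sox2, at 336 kb.

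The counts depended on the rule that links a summit to a gene. In the Nkx2-1 deleted list, the gut differentiation genes were at 0 except within 100 kb, where 35.3% of them and 45% of the regulators had a summit, as given above, against 20.7% of all genes. Inside the span, 4 of the 20 regulators had a summit, and the same number did within 10 kb, against 4.42% and 6.47% of all genes and 0 of the 26 gut genes. Leaving out regions found in all 3 lists left the counts at 5 regulators and 0 gut genes, against 12.9% of all genes. These counts could not move, since none of the regulators' regions within 50 kb overlapped a region of another list. In wildtype the group had 1 gene inside the span (1.01% of all genes) and 1 within 10 kb (1.37%), Nfib each time, and 2 by nearest gene (2.19%), Nfib and Id2. Within 100 kb it had 7 (4.66%), adding Cebpd, Id2 and Cldn18. The wildtype count was 4 with a −log10 q of at least 5 (1.88%), without regions found in all lists (2.55%) and at the ectopic Sox2 depth (2.61%). For the ectopic Sox2 list the group had 0 genes inside the span (0.439% of all genes), within 10 kb (0.736%), within 100 kb (2.45%), with a −log10 q of at least 5 (1.18%) and without regions found in all lists (1.21%), and 1 by nearest gene (1.02%), Nfib.

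**Figure D5:**
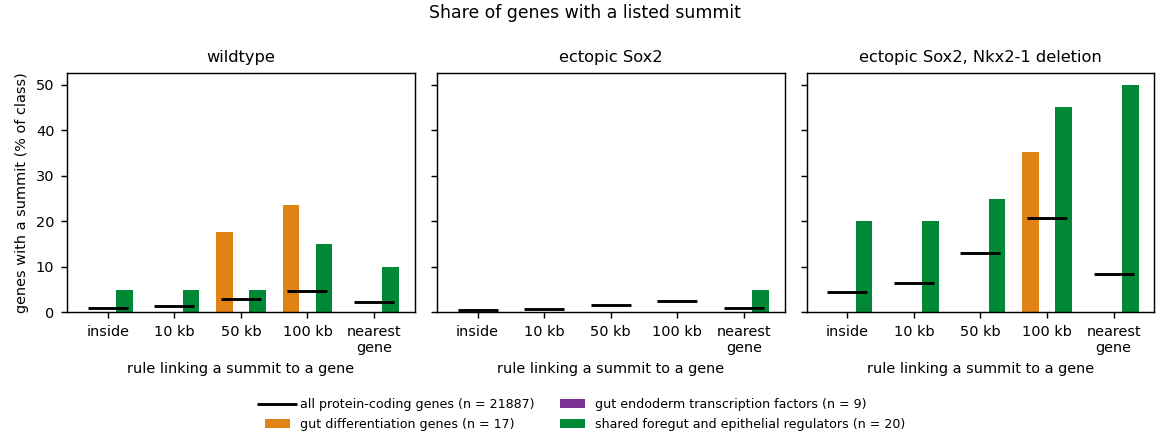
Percentage of each class with a summit (bars) and of all 21887 protein-coding genes (black lines) under 5 rules linking summits to genes, for each library. With Nkx2-1 deletion the regulators range from 20% (inside the span) to 50% (nearest gene) and gut differentiation genes are at 0% except at 100 kb (35.3%); gut endoderm factors are at 0% throughout.

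Related genes outside the group were counted in the same way. Of 24 other gastric and intestinal genes, the Nkx2-1 deleted list placed a summit within 50 kb of 5 (20.8%). The wildtype list did so for 1 (4.17%), against 2.85% of all genes. Of 18 other gut endoderm transcription factors, Klf5 alone was reached in the Nkx2-1 deleted list and none in wildtype. Of 22 paralogues of the regulators, 3 were, namely Nfix, Id4 and Grhl1, and again none in wildtype. With ectopic Sox2 the counts of all 3 lists were 0. Against the 13.1% of all genes found near a Nkx2-1 deleted summit, the 5.56% and 13.6% of the latter 2 lists were near or below the background. The 20.8% of the first list was above it, on 5 genes. Inside the span and within 10 kb the same 24 genes had 1 (4.17%), Cftr, against 4.42% and 6.47% of all genes. By nearest gene they had 4 (16.7%), against 8.51%. The 0 of 17 gut differentiation genes in that library was thus not repeated at 50 kb outside the group, on counts that are small and depend on the rule.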

How the data were processed

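Per the labels, chromatin was crosslinked with a long-arm crosslinker and formaldehyde, sonicated and immunoprecipitated, and sequenced as single reads. The submitters' processing notes name Bowtie2 2.2.9, SAMtools 1.4, MACS2 2.1.1, HOMER 4.8.3 and mm10. Which control each list was called against, and at what threshold, is not given in the sources used here. Samples of input (3) and IgG (3) are not analysed here. The authors' deposited lists, 1 per library and not pooled, give each summit a fold enrichment ratio over the control, −log10 p, −log10 q, an integer score and an offset; all are the authors' values, used to describe, rank and filter summits within 1 list.

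Positions are printed counting from 1. A summit belonged to a gene when it lay inside its RefSeq GRCm38.p6 span or within 50 kb; all 46 names matched. Fold and −log10 p were solved together for the ChIP pileup and control background (pseudocount 1, Poisson upper tail), and pileups divided by 1 scale per list gave whole fragments (single reads as extended by the caller) within 0.02 for at least 99.5% of summits, after a check on simulated data. The genome-wide background over the scale gave depth. Ratios between libraries were scaled by depth, with exact conditional binomial intervals and no background subtraction. Motifs at summits, planned for a genome sequence, were not run, and promoters were searched instead. Alternatives were other windows, nearest gene, a stricter q, leaving out regions in all lists, and, added after seeing the data, equal depth. Every gene with a summit is named, the rest by distance. The members, classes and lists were chosen with earlier results of these data known. Python 3.11.15, pandas 2.3.3 and scipy 1.17.1 were used.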

Additional observations from a re-analysis of the deposited data

How the results depend on the processing

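No paired analysis was possible because each condition has 1 library. Of 87 values recomputed under other settings, 67 stayed within 1.5 times the count reported and 20 did not. Many of the 67 compare 0 with 0. A count of 0 genes could rise only within 100 kb or by nearest gene, since the other rules keep a part of the same summits. In wildtype, the 4 genes of the whole group became 1 within 10 kb or inside the span, 2 by nearest gene and 7 within 100 kb; the 3 gut differentiation genes became 0 within 10 kb, inside the span and by nearest gene; and the 1 regulator became 3 within 100 kb and 2 by nearest gene. With ectopic Sox2, the group and the regulators went from 0 to 1 by nearest gene, the outer Nfib site. With Nkx2-1 deletion, the 5 genes of the group, all regulators, became 3 with a −log10 q of at least 5 or at the ectopic Sox2 depth, and 10 by nearest gene; within 100 kb the group had 15, the regulators 9 and the gut differentiation genes, from 0, 6. These changes follow from wider, narrower or stricter rules. The count for gut endoderm transcription factors was 0 in every library under every setting run, though only 100 kb and nearest gene could raise it. The number of summits within 50 kb that shared a region with another list was also 0 throughout. A larger overlap or a stricter q could not raise that number. A median of 24 fragments per wildtype summit, 23.5 with ectopic Sox2 and 38 with Nkx2-1 deletion limits what an unlisted site can show.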

Other observations

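Among gastric and intestinal genes outside the group, Cftr, the chloride channel of gut and airway epithelium, had 4 Nkx2-1 deleted summits inside the gene on chromosome 6. The strongest, at 18271040 to 18271332, had a fold of 9.65, a −log10 q of 16.5 and 66 fragments. Another, at 18290643 to 18291099 with 72 fragments, overlapped the only wildtype summit of this list, which had 30 fragments. Krt20, a keratin of differentiated intestinal and gastric epithelium, had a summit 16.8 kb away with a fold of 8.71 and 47 fragments. Clca1, a goblet cell gene, had 2 summits at 15.4 kb and 11.1 kb, with 53 and 48 fragments, the first of them nearer to Clca4a. Spink4 had summits at 46.1 kb and 46.3 kb and Ghrl at 47.3 kb, all nearer to other genes.

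Klf5, a factor of proliferating gut and lung epithelium, had a summit inside the gene with 66 fragments and another at 26.1 kb with 41, and was also the nearest gene to summits at 136 kb and 143 kb with 70 and 29. Nfix, a further paralogue of Nfib, had summits inside the gene (31 fragments) and at 16.8 kb (34), and Id4, a paralogue of Id2, had 1 at 8.30 kb with 23 fragments and a −log10 q of 4.00. In wildtype Id4 was nearest to a different summit at 240 kb. No explanation was tested for these values.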
